A study of Homo sapiens with 2 samples.

Results

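*ADGRF1*, *LURAP1L*, *LEMD1* and *WNT16* are 4 protein-coding genes of the 33538 genes counted in HCT116 cells with and without decitabine. They were chosen by their measured UMI counts, as genes with some of the lowest ratios of DAC-treated to mock-treated cells, so their lower level after DAC is a description of that choice and was not tested. All 4 names were found once in each table. HCT116 is an established line from a human colon carcinoma, and decitabine (5-aza-2′-deoxycytidine, DAC) is a nucleoside analog that depletes DNA methyltransferases once it is built into DNA. Cells were cultured in McCoy's 5A medium with fetal bovine serum. DAC-treated cells received 0.5 μM DAC on days 1 and 3, went into drug-free medium on day 5 and were harvested by trypsin on day 7. Mock-treated cells followed the same schedule by their labels, with the drug replaced by a mock treatment that the labels do not describe further. From each condition, 1 droplet library of 3′ transcript ends was made, and every transcript molecule was marked with a unique molecular identifier (UMI).

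The mock-treated library held 1783 cells and 49911689 UMIs, and the DAC-treated library held 1751 cells and 59046165 UMIs. The median cell had 27899 UMIs in the mock-treated library and 35340 in the DAC-treated library. In total, 12 cell barcodes occurred in both libraries. With 1 library per condition there is no replicate check of any difference between conditions, and cells of 1 library were not used as replicates. Intervals are 95% confidence intervals and cover counting error only: exact Poisson intervals for sums and levels, exact conditional binomial intervals for ratios and exact binomial (Clopper-Pearson) intervals for shares of cells. Both libraries carried epithelial markers of the labelled line. Of 12 epithelial and intestinal markers, 11 had a UMI in mock-treated cells, all except *CDX1*, and 12 in DAC-treated cells, with *KRT18* the most abundant in each, at 101301 and 252746 UMIs. Their summed level, as UMIs scaled to equal library totals (counts per 10 to the power of 6, CPM), was 5389 CPM with mock and 8165 CPM with DAC treatment. Not all of these markers were higher after DAC: *KRT18* had a log2 ratio of 1.08 and *KRT8* of 0.79, *EPCAM* was at -0.65, *CLDN3* at -1.13, *CLDN4* at -1.67 and *CLDN7* at -1.08, and the median of the list was -0.02. Some were sparse, with *LGALS4* at 7 and 103 UMIs (3.64), *VIL1* at 37 and 62 and *CDX1* at 0 and 58. Markers of other cell types were lower in sum, and a few of them had most of the UMIs. The 8 fibroblast markers summed to 10.9 and 25.8 CPM, mostly *COL1A1* (533 and 1112 UMIs) and, after DAC, *THY1* (1 and 332), with *COL1A2*, *DCN*, *LUM* and *FAP* at 0 in mock-treated cells. The 9 leukocyte markers summed to 8.74 and 18.5, mostly *CD68* (321 and 525) and, after DAC, *CD3D* (1 and 292), with *PTPRC* and *CD3E* at 0 in mock-treated cells. The 5 endothelial markers summed to 0.220 and 2.40, with *VWF* the most abundant in each (6 and 62 UMIs) and *PECAM1*, *CDH5* and *CLDN5* at 0 in mock-treated cells. No marker of these 3 lists was at 0 in DAC-treated cells, and the part of these UMIs in the results below was not tested.

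The genes belong to different families. *ADGRF1* encodes an adhesion G protein-coupled receptor, a class of receptors with a long extracellular part that is cut from the membrane part and can uncover a tethered agonist; ADGRF1 is known as a receptor for the lipid synaptamide. *WNT16* encodes a secreted WNT ligand, and such ligands are lipid-modified in the secretory pathway and signal through Frizzled receptors and their LRP coreceptors. *LEMD1* encodes a protein with a LEM domain, a fold that in other proteins binds the chromatin protein BANF1 at the inner nuclear membrane, and it is counted among the cancer-testis antigens, which are expressed in the germ line and in some tumors. *LURAP1L* is a paralog of *LURAP1*, which encodes an adaptor of the CDC42-binding kinases MRCK and the myosin MYO18A. HCT116 cells carry an activating mutation of β-catenin, the effector of canonical WNT signaling.

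The 250 bases upstream of the annotated RefSeq start of each gene are shown. All 4 genes were low after a drug that removes methylation from CpG sites, and the sequences differ widely in such sites. RefSeq promoter sequences on GRCh38.p14 were found for 4 of the 4 genes. The windows end at the base before the annotated start, at chr6:47042333-47042582 on the minus strand for *ADGRF1*, chr9:12774770-12775019 on the plus strand for *LURAP1L*, chr1:205422057-205422306 on the minus strand for *LEMD1* and chr7:121328750-121328999 on the plus strand for *WNT16*. Each sequence is written 5′ to 3′ on the strand of its gene, with CpG sites in capitals.
ADGRF1: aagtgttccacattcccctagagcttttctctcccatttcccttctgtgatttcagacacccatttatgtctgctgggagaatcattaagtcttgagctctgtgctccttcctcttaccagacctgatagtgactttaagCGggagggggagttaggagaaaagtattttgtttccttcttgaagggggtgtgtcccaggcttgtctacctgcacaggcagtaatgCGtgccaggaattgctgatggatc
LURAP1L: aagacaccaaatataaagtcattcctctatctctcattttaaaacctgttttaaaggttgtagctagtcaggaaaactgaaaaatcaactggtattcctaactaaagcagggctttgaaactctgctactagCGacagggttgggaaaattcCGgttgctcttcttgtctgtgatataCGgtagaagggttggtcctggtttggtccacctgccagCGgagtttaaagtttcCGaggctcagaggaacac
LEMD1: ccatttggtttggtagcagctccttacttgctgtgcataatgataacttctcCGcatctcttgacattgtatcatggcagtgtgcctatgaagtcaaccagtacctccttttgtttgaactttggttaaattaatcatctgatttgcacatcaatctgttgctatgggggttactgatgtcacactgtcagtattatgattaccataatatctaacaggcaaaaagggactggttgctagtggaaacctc
WNT16: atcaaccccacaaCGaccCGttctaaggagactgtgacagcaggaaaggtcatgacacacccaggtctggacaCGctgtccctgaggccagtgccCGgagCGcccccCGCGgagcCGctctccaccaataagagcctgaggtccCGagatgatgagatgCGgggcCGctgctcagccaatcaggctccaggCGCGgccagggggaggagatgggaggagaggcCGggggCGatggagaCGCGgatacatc

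The *WNT16* window held 17 CpG sites, and 61.0% of the 35116 RefSeq promoter windows of the same length held fewer. The other windows were poor in CpG: *LURAP1L* had 5 sites, *ADGRF1* had 2 and *LEMD1* had 1, against a median of 11 over all windows. The GC content was 64.8% for *WNT16*, 47.6% for *ADGRF1*, 42.8% for *LURAP1L* and 40.4% for *LEMD1*, with a median of 58.0% over all windows. DNA methylation was not measured in these libraries. In GENCODE release 44, the *WNT16* window lies in an intron of the longer transcript WNT16-202, and the *LEMD1* window lies in introns of LEMD1-205 and LEMD1-208. Both windows thus lie before a start inside the gene span given below, and not before the outermost start of the gene. Which start these cells used was not tested, so these CpG counts may not be those of the promoter in use. The *LURAP1L* window lies in an intron of the antisense transcript LURAP1L-AS1-201. The last 18 bases of the *ADGRF1* window are an exon of the retained-intron transcript ADGRF1-206. No other exon overlapped a window.

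Motifs were searched on both strands of these windows. The amino acid response element TGATGNAA, to which ATF4 binds, was in none of the 4 windows and in 3.14% of all windows. The AP-1 motif TGANTCA was in none of the 4 and in 6.57% of all windows, and the cyclic AMP response element TGACGTCA was in none and in 1.65%. The CCAAT box, CCAAT, occurred 2 times in the *WNT16* window and was present in 32.0% of all windows. The *LURAP1L* window held the TATA box letters TATAAA, present in 10.7% of all windows, and the TCF motif CTTTGA, present in 11.2%. The GC box GGGCGG, in 42.6% of all windows, and the E-box CACGTG, in 6.34%, were in none of the 4. These searches describe letters in a short window and not binding.

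In mock-treated cells, *ADGRF1* was the most abundant of the 4 genes by UMIs, followed by *WNT16*, *LURAP1L* and *LEMD1*. Levels are CPM, as defined above, and each UMI stands for a molecule captured at its 3′ end, so gene length does not enter. *ADGRF1* had 2422 UMIs with mock (2326 to 2520) and 84 UMIs with DAC treatment (67.0 to 104), or 48.5 and 1.42 CPM. *WNT16* had 1982 UMIs (1896 to 2071) and 220 UMIs (192 to 251), or 39.7 and 3.73 CPM. *LURAP1L* had 1421 UMIs (1348 to 1497) and 50 UMIs (37.1 to 65.9), or 28.5 and 0.847 CPM. *LEMD1* had 1156 UMIs (1090 to 1225) and 102 UMIs (83.2 to 124), or 23.2 and 1.73 CPM. The order of the 4 levels differed between the libraries: in DAC-treated cells *WNT16* was highest, the intervals of *LEMD1* and *ADGRF1* overlapped, and *LURAP1L* was lowest, with an interval below that of *ADGRF1*.

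The level in DAC-treated cells was 34.1-fold lower for *ADGRF1* (27.4 to 42.9) and 33.6-fold lower for *LURAP1L* (25.4 to 45.5), which are not distinguishable by counting error in these sums. The likeness of these 2 genes depended on the measure: the log2 ratio of the mean per-cell level was -5.15 for *ADGRF1* and -3.61 for *LURAP1L*, and after thinning to 10000 UMIs it was -5.14 and -4.65. It was 13.4-fold lower for *LEMD1* (10.9 to 16.6) and 10.7-fold lower for *WNT16* (9.27 to 12.3), whose intervals also overlap. On the log2 scale these ratios were -5.09, -5.07, -3.74 and -3.41. Of the 6447 genes whose higher library held 1000 UMIs or more, 66 (1.02%) were at least 4-fold lower in DAC-treated cells, and the 4 genes are among them because of how they were chosen. *ADGRF1* and *LURAP1L* had the lowest ratios of all 6447 genes, *LEMD1* was 4th and *WNT16* was 5th. The remaining places among the 10 lowest ratios belonged to *DDIT4* (-3.81), *ASNS* (-3.13), *FOSB* (-3.06), *FAM129A* (-3.06), *ERRFI1* (-3.02) and *PCK2* (-3.01). *DDIT4*, an inhibitor of mTORC1, and *ASNS*, asparagine synthetase, are known targets of the stress transcription factor ATF4, *FOSB* encodes an AP-1 subunit, *ERRFI1* a feedback inhibitor of EGFR and *PCK2* the mitochondrial PEP carboxykinase. The median log2 ratio of the 6447 genes was 0.27, and the median over the 15087 genes with 10 UMIs or more in both libraries was 0.18, so scaling by the median gene makes every ratio lower by 0.18.

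**Figure D1:**
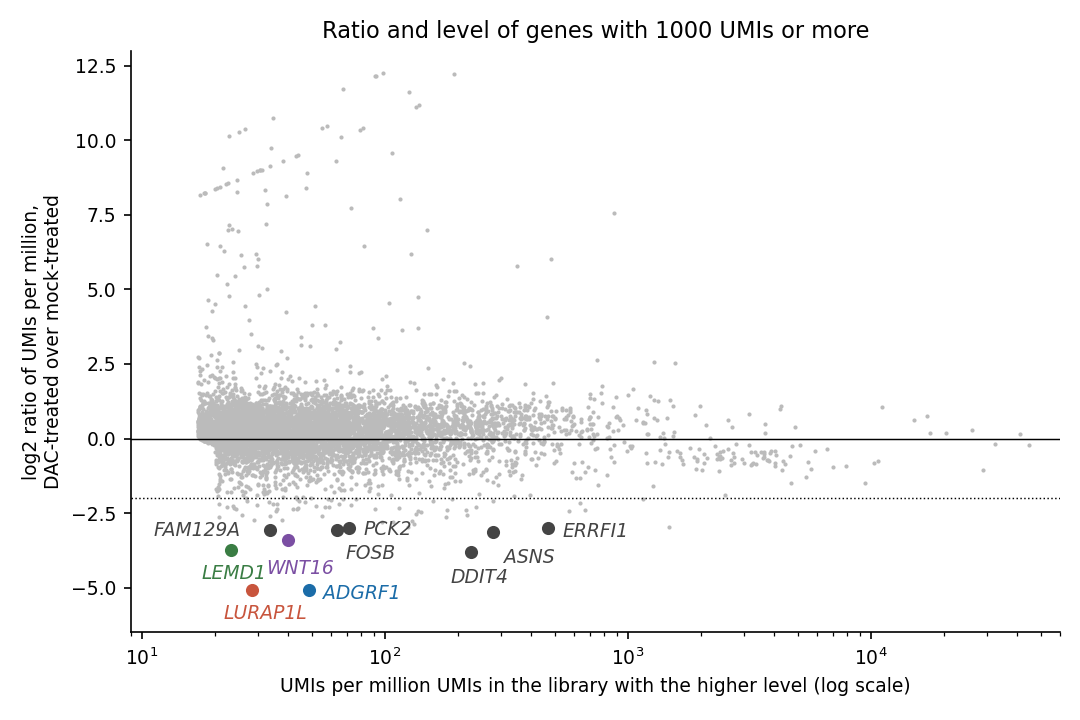
Log2 ratio of CPM in DAC-treated over mock-treated cells (vertical axis) against CPM in the library with the higher level (horizontal axis, log scale) for 6447 genes, each a point. The 10 lowest genes are named, the dotted line marks a ratio of 4-fold lower, and *ADGRF1* (-5.09) and *LURAP1L* (-5.07) lie below all other points.

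More cells had a UMI of each gene in the mock-treated library, and the cells that had one held more UMIs. *ADGRF1* was detected in 797 mock-treated cells (44.7%, 42.4 to 47.0%) and 59 DAC-treated cells (3.37%, 2.57 to 4.33%). *WNT16* was detected in 720 mock-treated cells (40.4%) and 142 DAC-treated cells (8.11%). *LURAP1L* was detected in 678 (38.0%) and 43 (2.46%), and *LEMD1* in 622 (34.9%) and 79 (4.51%). Because DAC-treated cells had more UMIs, the shares were also taken after drawing 10000 UMIs from every cell with at least that many, so that 395 cells of the mock-treated and 458 of the DAC-treated library did not enter. At this equal depth, the shares in mock- and DAC-treated cells were 31.3 and 1.39% for *ADGRF1*, 26.8 and 3.02% for *WNT16*, 20.8 and 1.01% for *LURAP1L*, and 18.7 and 1.86% for *LEMD1*. These libraries hold a single cell line, so no cell type that should lack the genes was present to give the share due to free RNA in the droplets.

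A mock-treated cell with *ADGRF1* held 3.04 UMIs of it on average and up to 20, against 1.42 and up to 6 in DAC-treated cells. For *WNT16* the means were 2.75 and 1.55 and the maxima 18 and 9. *LURAP1L* had means of 2.10 and 1.16 with maxima of 9 and 4, and *LEMD1* had means of 1.86 and 1.29 with maxima of 12 and 5. In DAC-treated cells, 45 of the 59 cells with *ADGRF1* and 38 of the 43 cells with *LURAP1L* had a single UMI. Cells with 3 UMIs or more of *ADGRF1* numbered 340 in the mock-treated library (19.1%) and 6 in the DAC-treated library (0.343%). For *WNT16* they numbered 275 (15.4%) and 15 (0.857%), for *LURAP1L* 197 (11.05%) and 1 (0.0571%), and for *LEMD1* 132 (7.40%) and 5 (0.286%).

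**Figure D2:**
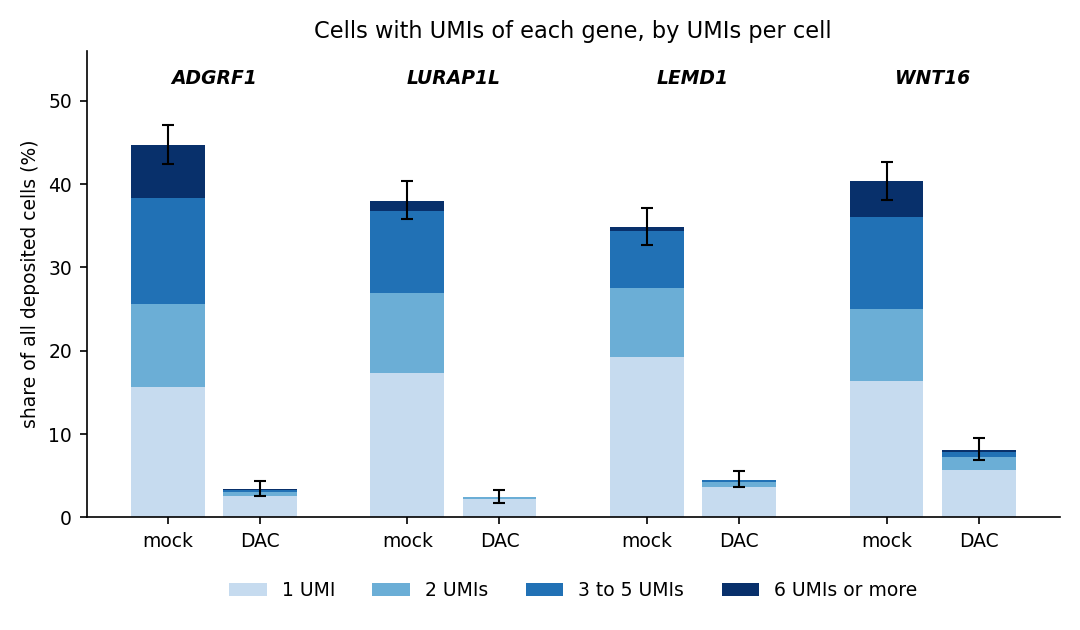
Share of all deposited cells with 1, 2, 3 to 5, or 6 or more UMIs of each gene, stacked (vertical axis, %), in mock-treated (1783) and DAC-treated (1751) cells; the error bar is the exact 95% interval of the share with any UMI. Bars of mock-treated cells reach 34.9 to 44.7% and bars of DAC-treated cells 2.46 to 8.11%, with few DAC-treated cells above 1 UMI.

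UMIs of *ADGRF1* and *WNT16* were spread unevenly over mock-treated cells. If a gene made up an equal fraction of the UMIs of every mock-treated cell, 652 cells would lack *ADGRF1*, and 986 did, 1.51 times as many. For *WNT16* the numbers were 749 and 1063, a ratio of 1.42. The excess was smaller for *LURAP1L*, with 916 and 1105 cells (1.21), and for *LEMD1*, with 1019 and 1161 cells (1.14). At equal depth, the variance of UMIs per mock-treated cell was 1.72 times the mean for *ADGRF1*, 1.64 for *WNT16*, 1.28 for *LURAP1L* and 1.23 for *LEMD1*, where Poisson counts have a ratio of 1. The means themselves had the same order, at 0.519, 0.400, 0.272 and 0.232 UMIs per cell. Both measures can grow with the mean, so they do not rank the genes by unevenness.

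Detection of a gene said little about detection of another in the same mock-treated cell. Of all mock-treated cells, 1356 (76.1%, 74.0 to 78.0%) had a UMI of at least 1 of the 4 genes, and 112 had all 4. In the DAC-treated library, 293 cells (16.7%, 15.0 to 18.6%) had at least 1 of them, 30 cells had 2 and no cell had 3. At equal depth, 932 mock-treated cells (67.1%) and 93 DAC-treated cells (7.19%) had at least 1. Among mock-treated cells with 10000 UMIs or more and mitochondrial UMIs of 50% or less (1298 cells, also used below where no other number is given), *WNT16* was present in 29.2% of the 404 cells with *ADGRF1* and in 26.7% of the 894 cells without it, with overlapping intervals. *LURAP1L* was present in 18.3% of the cells with *ADGRF1* (14.7 to 22.4%) and in 23.3% of those without (20.5 to 26.2%). *LEMD1* was present in 22.7% of the 357 cells with *WNT16* and 18.6% of the 941 cells without. Pearson's r over the 1298 cells, from log2 of the thinned UMIs plus 1, was 0.06 for *LEMD1* and *WNT16*, 0.04 for *ADGRF1* and *WNT16*, and -0.07 for *ADGRF1* and *LURAP1L*. For scale, the mitotic genes *MKI67* and *TOP2A* had an r of 0.70 and the serine and asparagine synthesis genes *PSAT1* and *ASNS* an r of 0.37 over the same cells. The pair *MCM3* and *MCM5* had an r of 0.32. *MKI67* and *ASNS* averaged 1.45 and 2.73 thinned UMIs per cell, against 0.25 to 0.52 for the 4 genes. Sparse counts draw r toward 0, so the low values among the 4 genes do not show that their levels vary separately.

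Levels of the genes differed in another way with the UMIs per cell. When all 1783 mock-treated cells were ordered by total UMIs and divided into 3 classes, with medians of 7375, 27899 and 44328 UMIs, *ADGRF1* was at 51.2, 53.9 and 45.0 CPM, so that its level differed little between shallow and deep cells. *WNT16* was at 26.7, 42.7 and 40.04. *LURAP1L* was at 13.9 CPM in the class with the fewest UMIs (10.7 to 17.8) and at 29.8 and 30.0 in the others. *LEMD1* was at 19.2, 28.9 and 20.5. Cells in which mitochondrial UMIs exceeded 50%, 311 in the mock-treated library, had 43.1 CPM of *ADGRF1* (35.3 to 52.1) and 2.44 of *LEMD1* (0.895 to 5.31), against 48.7 and 24.3 in the 1298 cells named above. *LURAP1L* was at 9.34 and *WNT16* at 19.5 in these mitochondria-rich cells, against 29.4 and 40.8. *ADGRF1* UMIs thus kept most of their share of the total in cells rich in mitochondrial UMIs, and *LEMD1* UMIs did not; the part of RNA quality in this was not tested. The DAC-treated cells were divided into 3 classes of their own, with medians of 2179, 35343.5 and 59133 UMIs, which are not matched in depth to those of mock-treated cells. Every gene was lower in each of them than in any of the 3 classes of mock-treated cells by total UMIs. *WNT16* was at 3.81, 3.16 and 4.03 CPM, *ADGRF1* at 2.77, 1.66 and 1.19, *LEMD1* at 3.46, 2.16 and 1.35 and *LURAP1L* at 2.08, 1.05 and 0.635. The 3.46 CPM of *LEMD1* (1.66 to 6.37) was not below its 2.44 CPM in the mitochondria-rich mock-treated cells.

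Some stress programs, but not the heat shock list described below, separated *LURAP1L* from the other genes in mock-treated cells. The 1298 cells, thinned to 10000 UMIs, were ordered by the summed UMIs of each of 22 gene lists, always without the gene in question, and the 432 cells with the lowest sums were compared with the 432 cells with the highest. ATF4 is the transcription factor of the integrated stress response and induces genes of amino acid synthesis and transport. With the sum of 22 ATF4 targets, *LURAP1L* went from 0.109 UMIs per cell in the low class (0.0799 to 0.145) to 0.281 in the middle and 0.461 in the high class (0.399 to 0.529), a ratio of 4.23 or 2.08 on the log2 scale (1.62 to 2.57). *ADGRF1* had the opposite order, with 0.787 to 0.491 and 0.292 UMIs per cell, a log2 ratio of -1.43 (-1.74 to -1.13). *LEMD1* went from 0.366 to 0.224 and 0.148, a log2 ratio of -1.30 (-1.75 to -0.88), and *WNT16* from 0.549 to 0.447 and 0.248, a log2 ratio of -1.15 (-1.49 to -0.81). Cells of the low and high ATF4 classes had a median of 15.0 and 42.5 UMIs of the list, 29732.5 and 33928 total UMIs, and 19.3 and 15.5% mitochondrial UMIs. When classes were formed within each of 3 ranges of total UMIs, the 4 log2 ratios kept their signs.

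The same split appeared with 2 other lists that overlap in the cells they mark. With the 15 genes of protein folding stress in the endoplasmic reticulum, such as the chaperone gene *HSPA5*, the log2 ratio of the high over the low class was 1.61 for *LURAP1L* (1.19 to 2.04), -0.86 for *ADGRF1*, -0.78 for *WNT16* and -0.63 for *LEMD1*. With 17 output genes of the MAPK pathway, among them *DUSP6*, *SPRY4*, *EREG* and *AREG*, it was 1.76 for *LURAP1L* (1.35 to 2.19), -0.97 for *LEMD1*, -0.89 for *ADGRF1* and -0.76 for *WNT16*. The sums of these lists go together: r over the 1298 cells was 0.53 for the ATF4 and folding stress lists, 0.55 for the ATF4 and MAPK lists and 0.42 for the folding stress and MAPK lists, so they are not separate observations. With the sum of the G2 and mitosis list described below, r was 0.35 for ATF4, 0.32 for MAPK and 0.15 for folding stress. The high classes again had fewer mitochondrial UMIs than the low classes, 15.8 against 18.7% for folding stress and 15.6 against 19.2% for MAPK, and for MAPK more total UMIs, 35370 against 29490; the part of these in the ratios was not tested. The 15 p53 targets gave 0.63 for *LURAP1L* (0.25 to 1.02), and -0.35 for *WNT16* (-0.67 to -0.03), with 0 inside the intervals of *ADGRF1* and *LEMD1*. For the 11 YAP and TEAD targets found by name, *LURAP1L* had 0.73 and *ADGRF1* -0.75; with another draw of the 10000 UMIs these values were 0.26 and -0.39, and *WNT16* moved from 0.38 to -0.13. The heat shock list gave -0.92 for *LEMD1* (-0.47 with the other draw) with -0.45 for *ADGRF1* (-0.73 to -0.17) and 0.31 for *WNT16*, a value whose sign differed in 3 of the alternatives. With this list *LURAP1L* was at -0.22, and its interval held 0 (-0.60 to 0.16).

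Cell cycle lists separated *LEMD1* most. With 20 genes of S phase, *LEMD1* went from 0.347 UMIs per cell in the low class to 0.125 in the high class, a log2 ratio of -1.47 (-1.95 to -1.02). With 20 genes of G2 and mitosis it went from 0.319 to 0.116, a log2 ratio of -1.46 (-1.96 to -0.99). The sums of both lists had an r of 0.61 over the 1298 cells, so these are not separate observations. For the G2 and mitosis list, *WNT16* had a log2 ratio of -0.99 (-1.33 to -0.65; -0.51 with another draw of the UMIs) and *ADGRF1* of -0.88 (-1.19 to -0.58), and the interval of *LURAP1L* held 0, at 0.32 (-0.05 to 0.69). With the S-phase list, *ADGRF1* and *LURAP1L* were at -0.51 and -0.47, and the interval of *WNT16* held 0. Cells of the high class had more RNA, with a median of 40796 total UMIs against 30186 for the G2 and mitosis list and 40256 against 29504 for the S-phase list, although every cell was thinned to the same number. Their mitochondrial UMIs were fewer, at 15.5 against 18.1% for G2 and mitosis and 16.0 against 17.8% for S phase. The part of the mitochondrial share in the ratios was not tested. When classes were formed within ranges of total UMIs, the ratio of *ADGRF1* for the G2 and mitosis list was -0.54.

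**Figure D3:**
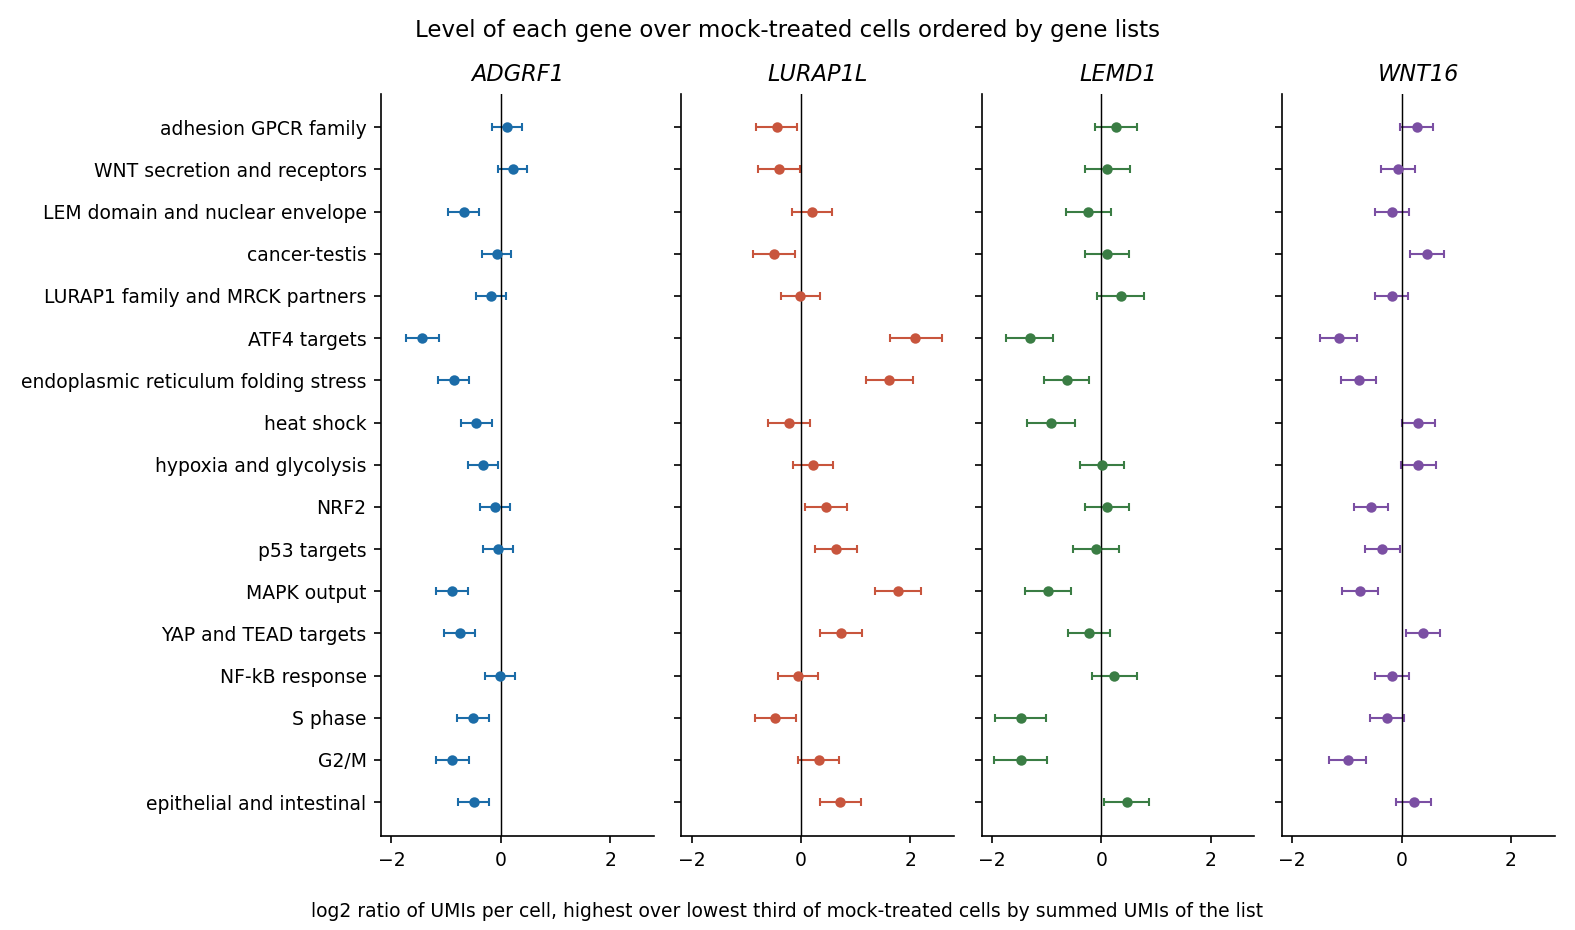
Log2 ratio of UMIs per cell in the 432 mock-treated cells with the highest summed UMIs of a list over the 432 with the lowest (horizontal axis) for 17 lists (vertical axis) and 4 genes (panels), at 10000 UMIs per cell; bars are exact 95% intervals. *LURAP1L* lies at 2.08 for the ATF4 list, where the other genes lie between -1.43 and -1.15.

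The other lists gave values below 1 in size on the log2 scale. For the lists of WNT targets, WNT ligands and fibroblast, leukocyte and endothelial markers, most cells were tied at 0 UMIs, so low and high classes of equal size could not be formed by the sums. For the 12 WNT targets, such as *AXIN2* and *RNF43*, 697 of the 1298 cells had 0 UMIs. The log2 ratio of cells with a UMI of the list over cells without was 0.61 for *LEMD1*, 0.47 for *WNT16*, 0.41 for *ADGRF1* and -0.69 for *LURAP1L*. The 12 epithelial and intestinal markers gave 0.72 for *LURAP1L* (0.35 to 1.09), 0.46 for *LEMD1* and -0.49 for *ADGRF1*. The LEM domain and nuclear envelope list gave -0.68 for *ADGRF1* (-0.96 to -0.40). The 10 NRF2 targets gave 0.45 for *LURAP1L* (0.06 to 0.84) and -0.56 for *WNT16* (-0.87 to -0.25), the 15 hypoxia and glycolysis genes -0.33 for *ADGRF1* (-0.61 to -0.05), and the 12 NF-kB response genes gave intervals that held 0 for every gene.

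No single gene followed any of the 4 closely. Over 1298 thinned mock-treated cells, and among genes that averaged 0.1 UMI or more, the highest r of *ADGRF1* was 0.19, with *ELF3*, an epithelial transcription factor. The other genes highest with *ADGRF1* were the ribosomal protein gene *RPL14* (0.18), the cadherin gene *FAT1* (0.18), *RPL7A* (0.17) and the WNT pathway transcription factor *TCF7L2* (0.17). *LURAP1L* went with *PFDN2*, a prefoldin subunit, at 0.23, with *HSPA5* at 0.23, with the autophagy gene *MAP1LC3B* at 0.22, with the amino acid transporter chain *SLC3A2* at 0.22 and with *RBCK1* at 0.22. *LEMD1* went with the calcium-binding protein gene *S100A4* (0.18), the nuclear RNA *NEAT1* (0.17), the keratin *KRT19* (0.14), the transglutaminase *TGM2* (0.14) and *CYB5B* (0.14). *WNT16* went with *FAM3C* (0.19), *TCF7L2* (0.15), the ligand of KIT *KITLG* (0.14), *CMBL* (0.13) and *AP1S3* (0.13). The median of the absolute r over 7517 genes was between 0.02 and 0.03 for each gene. These values come from sparse counts in cells of 1 library, and with another draw of the UMIs between 2 and 3 of the 5 named genes were again among the 5 highest of each gene. *FAM3C* was the highest gene of *WNT16* in that draw as well as at 20000 UMIs per cell, where its r was 0.26. It was the only 1 of the 5 genes named for *WNT16* that was again among the 5 highest at 20000 UMIs, where the r of *AP1S3* was 0.07. The lowest r of those 5 genes was 0.04 with the other draw. For *ADGRF1*, *TCF7L2* and not *ELF3* was highest with the other draw and at 20000 UMIs, and *RPL14* by Spearman's rho.

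Taken over all genes, the correlations of *LURAP1L* tended to have the opposite sign to those of the other 3 genes. Across 7514 genes, which are not independent of each other and come from the same cells, the r values of *ADGRF1* and *LEMD1* correlated at 0.45, those of *ADGRF1* and *WNT16* at 0.43 and those of *LEMD1* and *WNT16* at 0.41. Those of *LURAP1L* correlated at -0.45 with *ADGRF1*, -0.39 with *LEMD1* and -0.35 with *WNT16*, with the same sign for 38.5, 38.8 and 41.3% of the genes. Of the 10 genes highest with *LURAP1L*, 4 were among the 10 lowest with *ADGRF1*, with *HSPA5*, *MAP1LC3B* and *PFDN2* among them. Of the 10 genes highest with *ADGRF1*, 5 were among the 10 lowest with *LURAP1L*. Those 10 also held 2 mitochondrial transcripts, each at -0.15, and the part of RNA quality in these correlations was not tested. Among the other genes with the lowest DAC to mock ratios, *LURAP1L* had an r of 0.16 with *ERRFI1*, 0.15 with *DDIT4* and 0.14 with *ASNS*, whereas *ADGRF1* had -0.13 with *DDIT4* and -0.12 with *ASNS*. With *FOSB* the 2 genes were alike, at 0.04 each.

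The level of the 22 ATF4 targets itself differed between the libraries, so each gene was also compared between cells within the same limits of a list sum; the lowest and the highest class have no outer limit, so the sums within them can differ between libraries. The ATF4 list summed to 2970 CPM in mock-treated and 1024 in DAC-treated cells, and 8 of its 20 genes with 100 UMIs or more were at least 4-fold lower. Among all 12825 genes with 100 UMIs or more, 160 (1.25%) were at least 4-fold lower and 851 (6.64%) higher by 4-fold or more after DAC, with a median log2 ratio of 0.25 against -1.44 for the ATF4 list. At the limits of the mock-treated classes (24 UMIs or fewer, 35 or more), 1062 of 1120 DAC-treated cells (94.8%) fell into the low class, where *LURAP1L* was lowest in mock-treated cells and the other 3 genes were highest. Within this low class, *LURAP1L* was at 0.110 UMIs per cell in 465 mock-treated and 0.00847 in DAC-treated cells, 12.9-fold lower, a log2 ratio of -3.69 (-4.90 to -2.66). *ADGRF1* was at 0.768 and 0.0132, a log2 ratio of -5.86 (-6.75 to -5.10). *LEMD1* and *WNT16* had log2 ratios of -3.89 and -3.93 within the class. In the 23 DAC-treated cells of the high class, *LURAP1L* had 4 UMIs, 0.174 per cell (0.0474 to 0.445), against 0.456 in mock-treated cells. The other 3 genes had 0 UMIs there, which by counting error allows up to 0.160 UMIs per cell. Mock-treated cells of this class had 0.295 of *ADGRF1*, 0.279 of *WNT16* and 0.146 of *LEMD1*, so the 0 of *LEMD1* cannot be told from no change.

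For the folding stress list, DAC-treated cells were spread over the classes, with 30.5% in the low, 27.6% in the middle and 41.9% in the high class, and the list sums were alike in both libraries at 2479 and 2569 CPM. The genes within the list were not alike: *HSPA5* (-1.23) and *HERPUD1* (-1.09) were lower, and *SDF2L1* (1.86), *CRELD2* (1.07) and *CALR* (1.06) were higher in DAC-treated cells, so equal sums do not stand for equal levels of the same genes. In the high class, *LURAP1L* had 201 UMIs in mock-treated cells, 0.442 per cell, and 4 UMIs in 469 DAC-treated cells, a log2 ratio of -5.69 (-7.58 to -4.32). In the low class it had 65 and 7 UMIs, a log2 ratio of -2.85 (-4.23 to -1.73). In DAC-treated cells, the 3 classes had 7, 3 and 4 UMIs of *LURAP1L*. For the cell cycle lists, 80.7% of DAC-treated cells fell into the high S-phase class and 82.7% into the high class of G2 and mitosis. In these high classes *LEMD1* was at 0.131 and 0.143 UMIs per cell in mock-treated cells and at 0.0199 and 0.0205 in DAC-treated cells, log2 ratios of -2.72 (-3.57 to -1.94) and -2.80 (-3.61 to -2.05). The median log2 ratios of the S-phase and the G2 and mitosis list themselves were 1.09 and 1.04. No gene of either list was 4-fold higher or lower, beside 6.64 and 1.25% of all genes. Medians were 1.26 for heat shock, 1.46 for the NF-kB response, 0.79 for YAP and TEAD targets, 0.58 for p53 targets, 0.09 for hypoxia and glycolysis and -0.26 for NRF2 targets. The MAPK list summed to 5996 and 2053 CPM, with 2 of 17 genes at least 4-fold lower (4 with median-of-ratios scaling; 1.25% of all genes) and a median of -0.56, and 90.6% of DAC-treated cells fell into the low class, in which *LURAP1L* had a log2 ratio of -4.24 (-5.51 to -3.18). In the high MAPK class, which held 26 DAC-treated cells, *LURAP1L* had 5 UMIs, 0.192 per cell (0.0624 to 0.449), against 0.486 in mock-treated cells, a log2 ratio of -1.34 (-2.97 to -0.09).

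**Figure D4:**
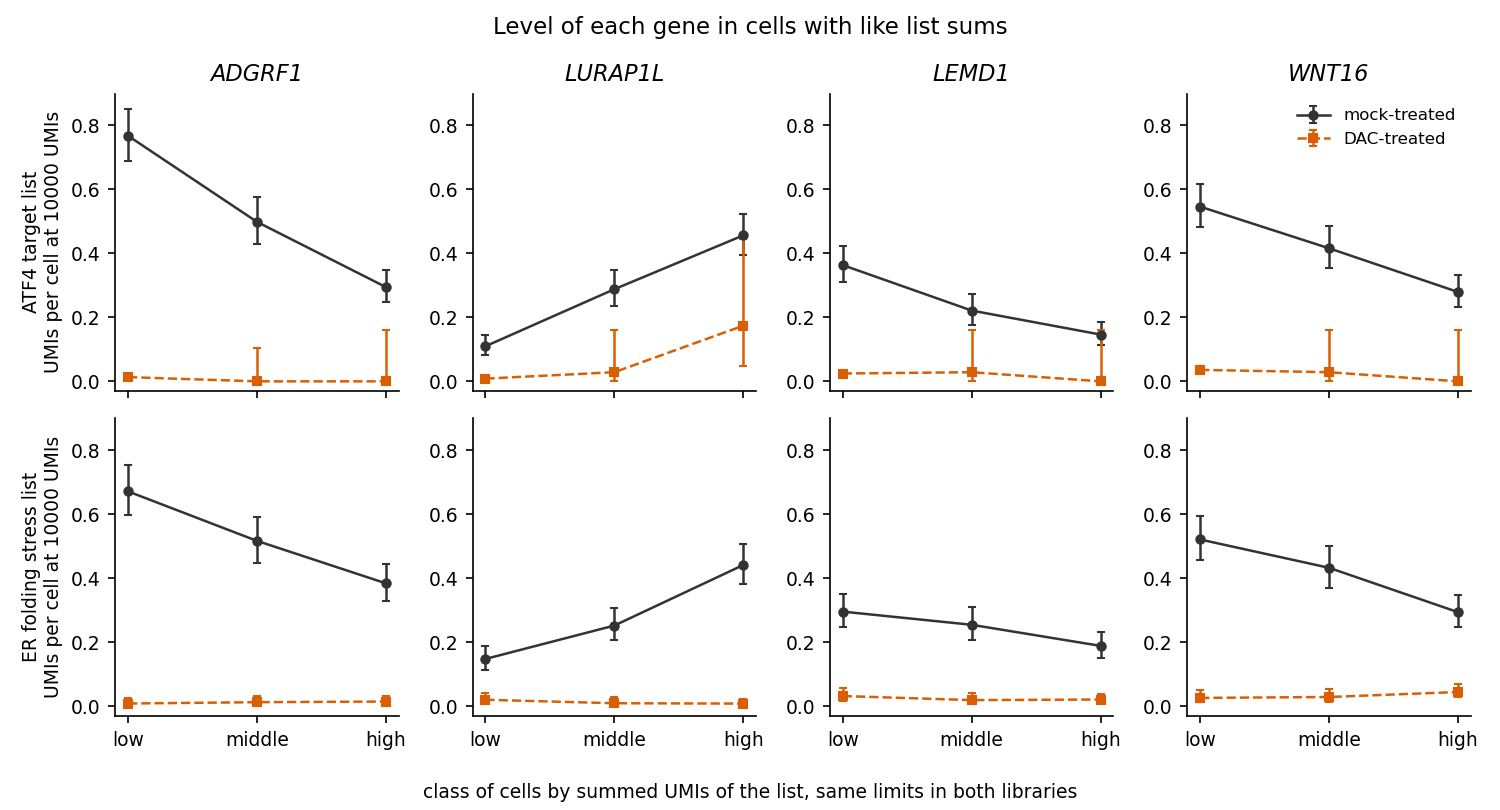
UMIs per cell at 10000 UMIs (vertical axis) of 4 genes (columns) in classes of cells with low, middle and high summed UMIs (horizontal axis) of the ATF4 target list (upper row) and the endoplasmic reticulum folding stress list (lower row), with the same limits in mock-treated (circles) and DAC-treated (squares) cells; bars are exact 95% intervals. The middle and high ATF4 classes hold only 35 and 23 DAC-treated cells, and *LURAP1L* is higher in each higher ATF4 class of mock-treated cells, where the other 3 genes are lower.

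Within DAC-treated cells, the few UMIs of the 4 genes were set against the summed UMIs of the cancer-testis list, which includes genes such as *MAGEB2* that also had UMIs in mock-treated cells. The 1120 cells were divided into 3 classes by thinned UMIs of the cancer-testis list, with medians of 3, 6 and 17 UMIs. *WNT16* had 18 UMIs in the low class (10.7 to 28.4), 16 in the middle and 5 in the high class (1.62 to 11.7). *ADGRF1* had 5, 8 and 1 UMIs, *LURAP1L* 4, 6 and 4, and *LEMD1* 6, 7 and 14. The log2 ratio of the high over the low class was -1.84 for *WNT16* (-3.63 to -0.36), and the intervals of the other 3 genes held 0. All of these counts in DAC-treated cells are small. In mock-treated cells, whose classes had medians of 0, 1 and 3 UMIs of the list, *WNT16* was at 0.46 (0.15 to 0.78). There *LURAP1L* was at -0.49 (-0.87 to -0.12), and the intervals of *ADGRF1* and *LEMD1* held 0. These values cannot be set against those in DAC-treated cells, because the most abundant genes of the list differed. In mock-treated cells, *MAGEB2* and *MAGEA3* held 3317 and 2776 of its 8215 UMIs. After DAC, *MAGEA4*, at 0 with mock treatment, was the most abundant with 8160. Many mock-treated cells also had tied sums, with 674 at 1 UMI or fewer.

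The family members of each gene did not share its ratio. Of the 32 adhesion G protein-coupled receptor genes, 22 had a UMI in mock-treated and 29 in DAC-treated cells, and *ADGRF1* was the most abundant in mock-treated cells with 23.4% of the UMIs of the family, against 1.05% in DAC-treated cells. Of the 16 with 100 UMIs or more, *ADGRF1* was at least 4-fold lower and *ADGRB1* and *ADGRE1* at least 4-fold higher (*ADGRE1* alone with median-of-ratios scaling), with a median log2 ratio of 0.03; over all genes the shares lower and higher were 1.25 and 6.64%, as given above. *ADGRG6* (1946 and 951 UMIs, -1.28), *ADGRE2* (385 and 185, -1.30) and *ADGRG1* (829 and 421, -1.22) were lower by less, and *ADGRE5* was at 0.07 with 1652 and 2058 UMIs. Without *ADGRF1*, the other 31 genes summed to 7935 and 7907 UMIs, or 159.0 and 133.9 CPM. The log2 ratio of these levels was -0.25, or -0.43 after median-of-ratios scaling.

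*WNT16* made up 62.9% of the UMIs of the 19 WNT ligand genes in mock-treated and 7.42% in DAC-treated cells, where *WNT7B* was the most abundant with 694 UMIs. Of the 10 ligand genes with 100 UMIs or more, *WNT16* was at least 4-fold lower, *WNT5B* (5 and 373 UMIs, 5.98) and *WNT9A* (33 and 172, 2.14) were at least 4-fold higher (*WNT5B* alone with median-of-ratios scaling), beside the same 1.25 and 6.64% over all genes, and the median was 0.57. The other 18 ligand genes summed to 1167 UMIs in mock-treated and 2746 in DAC-treated cells, a log2 ratio of 0.99, or 0.81 after median-of-ratios scaling. Of the 14 genes for WNT secretion and receptors with 100 UMIs or more, none was at least 4-fold lower and *FZD9* was at least 4-fold higher (none with median-of-ratios scaling), beside 1.25 and 6.64% of all genes, and the median was 0.01. Among them, *PORCN*, the acyltransferase of WNT ligands, had 305 and 281 UMIs and the ligand carrier *WLS* had 776 and 1294. Of 12 WNT target genes, 7 had 100 UMIs or more, of which *AXIN2* and *SP5* were at least 4-fold higher (6.64% of all genes), with a median of 1.08. *AXIN2* had 62 and 601 UMIs (3.03) and *RNF43* had 2173 and 4006 (0.64).

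Of 12 genes for LEM domain proteins and the nuclear envelope, *LEMD1*, chosen for its ratio, was at least 4-fold lower and none was 4-fold higher, beside 1.25 and 6.64% of all genes. Of the others, *EMD*, which encodes emerin, was at -0.06 with 4988 and 5660 UMIs, *TMPO* at 0.65, *LEMD2* at 0.31, *LEMD3* at 0.32 and *BANF1* at 0.29, and the median of the list was 0.38. Of the 27 cancer-testis genes, 22 had 100 UMIs or more, of which 18 were higher by 4-fold or more after DAC (6.64% of all genes) and *LEMD1* was at least 4-fold lower (1.25% of all genes); the median was 8.04, with genes at 0 in mock-treated cells entered at a limit of 3 counts. *MAGEB2* (0.74) and *MAGEA3* (0.71), which were the most abundant genes of the list in mock-treated cells at 3317 and 2776 UMIs, were higher by less than 4-fold. *LURAP1*, the paralog of *LURAP1L*, had 3 UMIs in mock-treated and 45 in DAC-treated cells (3.66, 2.03 to 5.995). The MRCK kinase genes *CDC42BPA* (0.11), *CDC42BPB* (0.31) and *CDC42BPG* (0.39), *MYO18A* (-0.07) and *CDC42* (0.46) were within 0.5 of 0 on the log2 scale.

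On the chromosomes, the 4 genes lie apart, on chromosomes 6, 9, 1 and 7, and their neighbors lay on both sides of 0. Positions are those of GENCODE release 44 on hg38, where 33113 of the 33538 identifiers were found. *WNT16* (ENSG00000002745) spans chr7:121325367-121341104 on the plus strand. *FAM3C*, a secreted protein gene on the other strand that ends 7774 bases from the end of *WNT16*, had 16349 and 8217 UMIs, a log2 ratio of -1.23, and is also the gene with the highest r with *WNT16* over mock-treated cells. On the other side, *CPED1* had 17 and 512 UMIs, a log2 ratio of 4.67 (3.98 to 5.46), and *ING3* had 561 and 553 (-0.26). *ADGRF1* (ENSG00000153292) spans chr6:46997708-47042350 on the minus strand. Its neighbor *TNFRSF21* had 961 and 609 UMIs (-0.90), and its family member *ADGRF5*, 42765 bases away, had 1 and 6.

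*LURAP1L* (ENSG00000153714) spans chr9:12775020-12823060 on the plus strand and overlaps the antisense gene *LURAP1L-AS1*, with 66 UMIs in mock-treated and 10 in DAC-treated cells, a log2 ratio of -2.96 (-4.09 to -1.996). The strand setting of the counting is not stated, so UMIs of this pair may not be fully separated. The next gene, *MPDZ*, had 0 and 26 UMIs, a log2 ratio of 2.87 with 0 entered at 3 counts. By counting error, from the count of 0 itself, the log2 ratio was at least 2.47. *LEMD1* (ENSG00000186007) spans chr1:205381378-205455954 on the minus strand, and *BLACAT1* overlaps it on the same strand. *BLACAT1* had 58 and 121 UMIs (0.82, 0.36 to 1.30), opposite in direction to *LEMD1*, and reads of the shared region could be counted for either gene or for none. *LEMD1-AS1* had 3 and 0 UMIs and *KLHDC8A* 2 and 7.

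**Figure D5:**
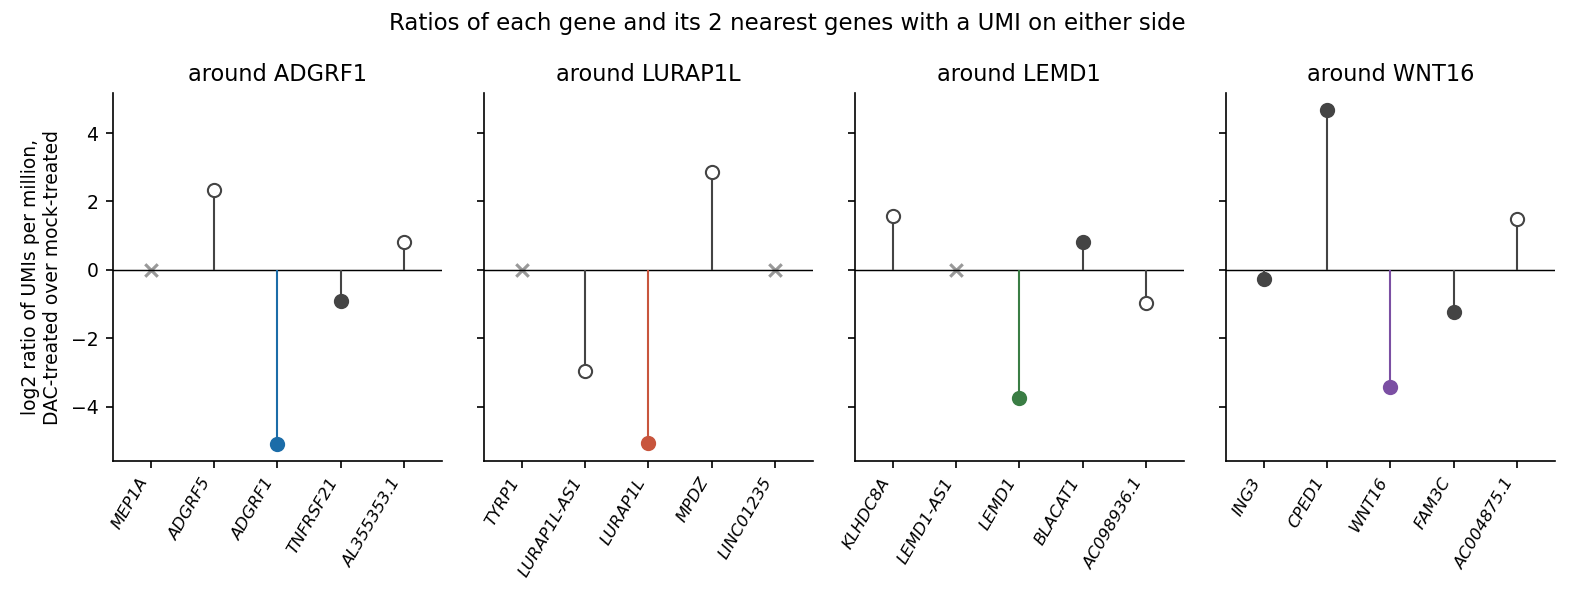
Log2 ratio of CPM, DAC-treated over mock-treated (vertical axis), of each gene (colored) and its 2 nearest annotated genes with a UMI on either side, in chromosomal order (horizontal axis). Filled points have 100 UMIs or more in the higher library, open points fewer, and crosses mark genes with 3 UMIs or fewer in both libraries; *CPED1* (4.67) lies beside *WNT16* (-3.41), and *LURAP1L-AS1* (-2.96) lies on the side of *LURAP1L* (-5.07).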

How the data were processed

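The counts are those the authors deposited: 2 tables of UMIs per gene and cell, which by the submitters' notes came from Cell Ranger 3.0.2 on hg38. The cell filter, the annotation release and the strand setting are not stated. Totals were 49911689 UMIs in 1783 mock-treated and 59046165 UMIs in 1751 DAC-treated cells. All deposited cells entered sums, levels and shares. Comparisons among cells used those with 10000 UMIs or more and mitochondrial UMIs of 50% or less, so that 485 cells of the mock-treated and 631 of the DAC-treated library did not enter, each thinned to 10000 UMIs without replacement. Genes are named when they are the 10 lowest ratios, the 5 highest correlations of a gene, its 2 nearest neighbors on each side or members of a family list; some genes of the other lists are named beyond this rule. A count of 0 was entered at 3 counts. Genes and lists were chosen with earlier results of these data known. Alternatives set beforehand were median-of-ratios scaling, mean per-cell levels, other cell filters, other thinning depths, a limit of 3 UMIs for detection and Spearman's rho. Another thinning draw, classes with tied cells kept together and classes within ranges of depth were chosen once the data had been seen. Doublets were not called; sums without the deepest 5% of cells took their place. Positions come from GENCODE release 44. The code was tested on simulated data, with Python 3.11.15, numpy 2.4.6, scipy 1.17.1, pandas 2.3.3 and matplotlib 3.10.9.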

Additional observations from a re-analysis of the deposited data

How the results depend on the processing

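All ratios between libraries kept their sign under 7 alternatives, with log2 ranges of -5.99 to -4.996 for *ADGRF1*, -5.94 to -3.61 for *LURAP1L*, -4.33 to -3.20 for *LEMD1* and -3.81 to -3.39 for *WNT16*. Of 28 values, 18 lay within the interval of the main value and 10 outside. Without the 1% of cells with the most UMIs of a gene, in the same order, the ratios were -5.99, -5.94, -4.33 and -3.81. An equal share of all cells is a larger part of the fewer positive DAC-treated cells, so a lower ratio follows from this alternative itself, and it sets the lower end of each range. The mean of per-cell levels gave -3.61 for *LURAP1L* and -3.20 for *LEMD1*. Without cells above 20% mitochondrial UMIs, *LURAP1L* was at -5.70. Thinned to 10000 UMIs, *LURAP1L* was at -4.65, *LEMD1* at -3.42 and *WNT16* at -3.62.

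The log2 ratio of shares, DAC-treated over mock-treated, was -4.49 for *ADGRF1*, -4.37 for *LURAP1L*, -3.33 for *LEMD1* and -3.15 for *WNT16* at 10000 UMIs. Without thinning, *ADGRF1* was at -3.73 and *WNT16* at -2.32. At 5000 UMIs, *LURAP1L* was at -5.70. With 3 UMIs for detection the 4 values were -5.80, -7.60, -4.70 and -4.17.

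Alternatives for classes were run for 10 lists and not for the others. Of 200 values, 188 were labelled the same, 10 moved and 2 moved across 0 from a main interval that excluded 0. With tied cells kept in 1 class, 40 of 40 values kept the sign of the main value, and in each other setting 38 of 40. No value of the ATF4, folding stress, MAPK or S-phase lists moved. Another draw gave, for YAP and TEAD targets, -0.39 for *ADGRF1*, 0.26 for *LURAP1L* and -0.13 for *WNT16* (0.38 before), for heat shock -0.47 for *LEMD1* and -0.19 for *WNT16*, and for G2 and mitosis -0.51 for *WNT16*. For heat shock, *WNT16* was at -0.34 with 20000 UMIs and -0.0887 with UMIs as deposited. For WNT targets, *WNT16* was at 0.90 with 20000 UMIs. Classes within ranges of total UMIs gave -0.54 for *ADGRF1* with G2 and mitosis, -0.39 for *LURAP1L* with WNT targets, and 0.0129 for *LURAP1L* with WNT ligands (-0.55 before, in classes that divide 771 cells tied at 0). The highest r at 20000 UMIs was 0.249 for *ADGRF1*, 0.301 for *LURAP1L*, 0.263 for *LEMD1* and 0.263 for *WNT16*. The other draw, the classes within ranges and the tied classes were chosen after the data were seen.

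Each condition has 1 library, so differences between libraries of the same condition are unknown, and counting intervals do not include them. The genes were selected on the ratio reported here. Levels are RNA counted at 3′ ends. Protein, DNA methylation and promoter activity were not measured in these libraries. UMIs of overlapping genes at *LEMD1* and *LURAP1L* were not separated further. Free RNA in droplets could not be measured in a single cell line. List sums share cells, depth and genes, so the lists are not independent.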
